A study of Mus musculus with 8 samples.

Results

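The netrins and the Slits are secreted guidance cues. The 10 genes described here are 2 netrins (Ntn1, Ntn4), the receptors known for binding netrins (Dcc, Neo1, Unc5b, Unc5c), 2 Slits (Slit2, Slit3) and their receptors (Robo1, Robo2). They were taken by symbol, as 10 of the 45321 genes to which the reads of the series could be assigned, and they were chosen with the genotype difference of these data already known. Their genotype values are therefore given as a description, with an error and without a p-value. RNA was sequenced from adherent fibroblast cultures that had grown out of mouse colon. The 8 libraries fall into 4 of Fib-Ctrl (Zeb1 flox/flox) and 4 of Fib-dZeb1 (Zeb1 del/del, titled Fib-KO in the labels), and each genotype consisted of 2 cultures, line 1 and line 2, with 2 replicate libraries each. All cultures came from animals with a loxP-flanked Zeb1 gene, the deletion was made by inducing Cre recombinase in vitro, and no treatment is named for any library. The sources do not say what the Fib-Ctrl cultures received at that step, so effects of the deletion and of Cre itself cannot be told apart. Whether a line number marks a shared animal, and how replicates were separated, is not in the labels, and 2 cultures stand for each genotype. The line 1 cultures differed in sex, as given below, and so came from different animals.

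Netrin-1 is a laminin-like secreted protein first known for steering axons. DCC and neogenin mediate attraction to it, UNC5 receptors turn the response into repulsion, and DCC and UNC5 proteins are also known as dependence receptors that favour cell death when no netrin is bound. Slits are large secreted proteins with leucine-rich repeats that bind Robo receptors and repel migrating cells and axons. In the gut, both systems act in the wiring of the enteric nervous system, and mesenchymal cells are a known source of netrin-1. Zeb1 encodes a zinc-finger repressor that binds DNA motifs of the E-box type.

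The libraries held 18852422 to 25540529 assigned reads. Zeb1 itself averaged 94.7 ± 2.71 CPM with the floxed gene and 14.3 ± 2.95 CPM after deletion (CPM, reads scaled to the size of the library after TMM normalisation; SD, n = 4 each), a 6.64-fold drop with an adjusted p of 4.8e-05 by the quasi-likelihood test of edgeR. When replicates were added up to give 1 value per culture (4 cultures), the log2 fold change of Zeb1 was -2.73 and did not pass (edgeR adjusted p = 0.0622). All 10 fibroblast markers reached 1 CPM in every library, and their summed level ranged over 53090 to 73470 CPM (Fib-Ctrl) and 18190 to 33940 CPM (Fib-dZeb1). Most of this sum came from Col1a1, Col1a2, Col3a1 and Fn1. Pdgfra (means 376.6 and 419 CPM) and Thy1 (162 and 181 CPM) were not lower in Fib-dZeb1. The other markers had lower means there, Vim by little (3574 and 3356 CPM). Summed levels of markers of other cells did not overlap between genotypes in 3 of 9 lists. The 6 smooth muscle markers summed to 1630 to 3284 CPM (Fib-Ctrl) and 519.7 to 714.1 CPM (Fib-dZeb1), the 3 markers of interstitial cells of Cajal to 14.9 to 30.7 and 48.3 to 101.8 CPM, and the 4 mesothelial markers to 0.0582 to 0.915 and 1.57 to 8.66 CPM. The smooth muscle sum was mostly Actg2 and Cnn1, and Smtn alone had a higher mean in Fib-dZeb1 (135 and 158 CPM). The Cajal sum was Ano1 and Etv1, with Kit at 0 to 0.095 CPM. The mesothelial sum in Fib-dZeb1 was mostly Msln (mean 3.82 CPM), and Wt1 alone had a lower mean there (0.392 and 0.0477 CPM). The 10 epithelial markers summed to 0.619 to 30.1 and 8.10 to 125.9 CPM, an overlap that came from Lgr5, at 29.6 and 18.9 CPM in Fib-Ctrl line 1. Epcam (0 to 0.058 against 1.81 to 4.51 CPM), Krt8 (0 to 0.058 against 0.319 to 2.22 CPM) and Krt18 (0 to 0.411 against 2.50 to 119.7 CPM) were higher in every Fib-dZeb1 library. Cdh1, Krt20 and Vil1 had higher means there but stayed at or below 0.41 CPM in every library. Muc2 (means 0.0989 and 0.0516 CPM), Cldn7 (0.0343 and 0.0211 CPM) and Lgr5 (12.2 and 0.0526 CPM) had lower means in Fib-dZeb1. The 8 enteric neuron markers summed to 4.44 to 36.4 CPM in Fib-Ctrl, against 1.001 to 11.4 CPM in Fib-dZeb1, with Elavl4, Chat and Snap25 at 0 in all libraries. The 5 pericyte markers (31.3 to 46.0 against 19.98 to 40.3 CPM), the 8 endothelial markers (1.34 to 3.07 against 1.17 to 3.96 CPM), the 7 immune markers (2.94 to 4.68 against 2.05 to 3.14 CPM) and the 6 enteric glia markers (0.722 to 3.43 against 0.668 to 2.41 CPM) overlapped between genotypes. Cdx2 (epithelial), Cldn5 (endothelial) and Adgre1 (immune) were at 0 in all libraries. The part of other cells in the values below was not tested, and fewer cells of a type and less RNA per cell cannot be told apart in bulk RNA. Fib-dZeb1 line 1 differed from the other lines in sex, with Xist at 250.6 and 113 CPM and Ddx3y at 0, whereas the other 6 libraries had Xist at 0 and Ddx3y at 32.9 to 110.5 CPM. With genotype as the only term, 2099 of 12963 genes tested passed an adjusted p of 0.05 (16.2%), 978 higher and 1121 lower in Fib-dZeb1. Scaling by library size alone shifted the median of all genes on the log2 scale from -0.005 to 0.173 and the split to 2272 higher and 719 lower.

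Of the 10 genes, 9 passed the filter on low counts, and Dcc did not. Ntn1 and Unc5c rose in Fib-dZeb1, which is 2 of 9 genes past the threshold beside 16.2% of all genes tested, and nothing is read from this count because the genes were chosen with this contrast known. The same 2 genes were the ones whose libraries did not overlap between genotypes. Both were higher in Fib-dZeb1, beside 12.0% of all genes tested that did not overlap in that direction. For the other 7 tested genes the libraries of the genotypes overlapped.

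**Figure D1:**
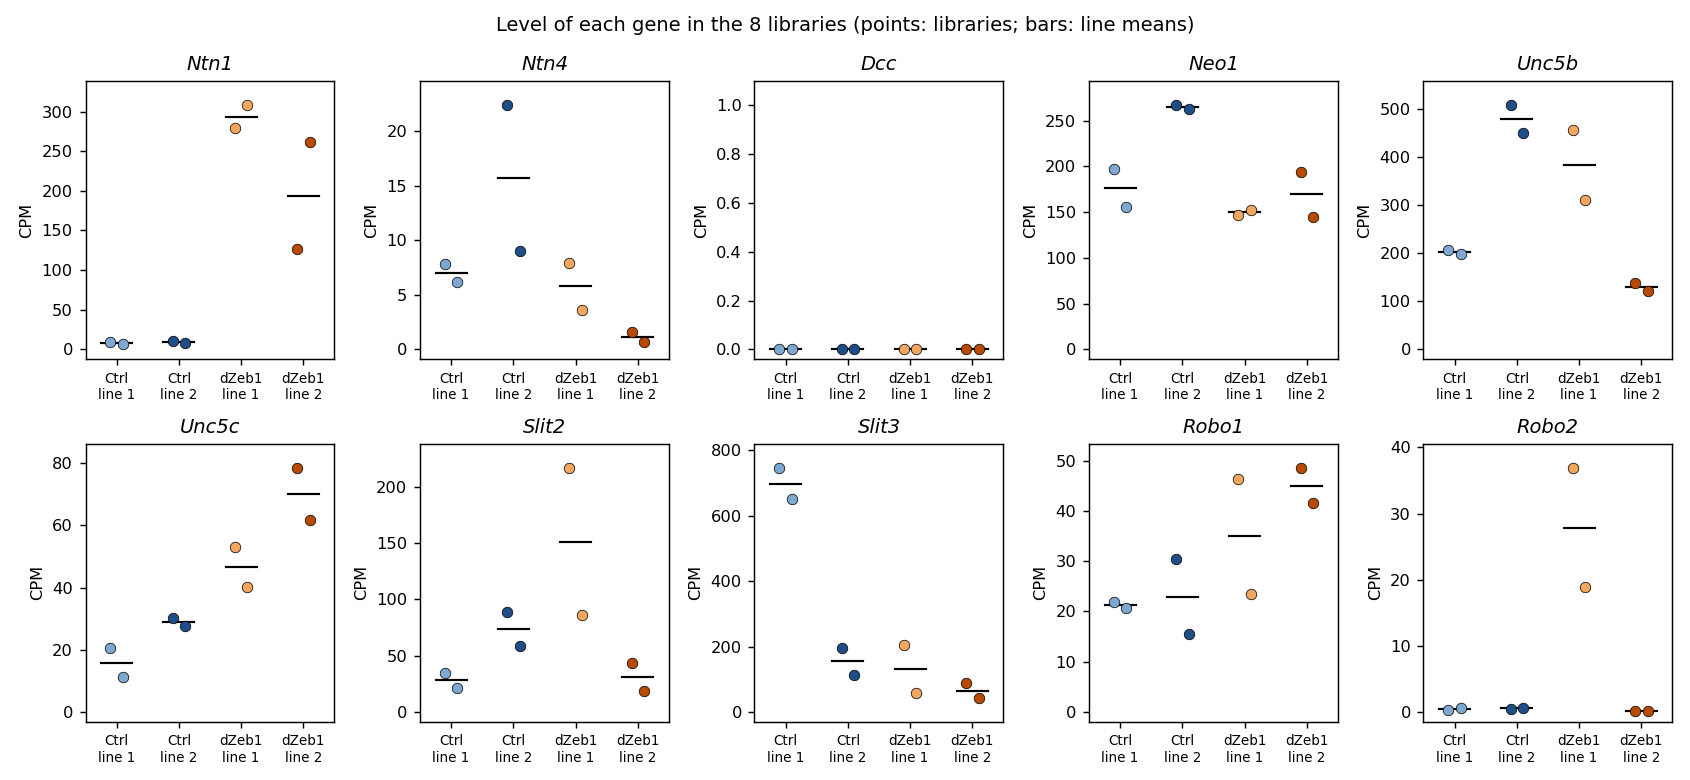
CPM (y axis, linear, a scale of its own for each gene) of the 10 genes in the 8 libraries, grouped by genotype and line; points are libraries and bars are means of the 2 replicates of a line. Ntn1 and Unc5c are higher in all 4 Fib-dZeb1 libraries than in all 4 Fib-Ctrl libraries, Robo2 is high in Fib-dZeb1 line 1, and Dcc is at 0 throughout.

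On the scale per transcript length (TPM), the order of the genes differed between genotypes. In Fib-Ctrl it ran from Slit3 (mean 137 TPM) through Unc5b (96.1), Neo1 (48.9), Slit2 (11.8), Ntn4 (5.29), Robo1 (4.80), Unc5c (4.80) and Ntn1 (3.26) to Robo2 (0.154). The libraries of neighbours in this order overlapped, except that Slit2 lay below Neo1 and Robo2 below Ntn1 in every library. In Fib-dZeb1 the order ran from Ntn1 (mean 98.2 TPM) through Unc5b (81.3), Neo1 (39.7), Slit3 (35.3), Slit2 (22.7), Unc5c (14.5), Robo1 (9.77) and Robo2 (6.39) to Ntn4 (1.80), and the libraries of each neighbouring pair overlapped. Ntn1 was thus next to the lowest of the detected genes in Fib-Ctrl by mean TPM and the highest in Fib-dZeb1.

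Ntn1 (ENSMUSG00000020902.12; chromosome 11, positions 68209364 to 68400823 of GRCm38, minus strand, protein-coding) encodes netrin-1. Fib-Ctrl line 1 held 9.70 and 6.06 CPM in its replicates and Fib-Ctrl line 2 held 10.3 and 7.89 CPM. Fib-dZeb1 line 1 held 279.5 and 307.9 CPM and Fib-dZeb1 line 2 held 127 and 261 CPM. Every Fib-dZeb1 library stood above every Fib-Ctrl library, and Fib-dZeb1 line 2 replicate 1 was the lowest of its genotype. The means were 8.49 ± 1.91 and 243.9 ± 80.3 CPM (SD, n = 4 each), a 28.7-fold difference (log2 fold change 4.84, SE 0.32, 95% interval 4.11 to 5.58). Within the line numbers it was 5.21 for line 1 (95% interval 4.27 to 6.16) and 4.42 for line 2 (3.504 to 5.33), and their difference is tested further on. Under each of 19 alternative settings it lay between 4.52 and 5.12. The isoform Ntn1-201 held 55.1% to 81.1% of Ntn1 TPM in Fib-Ctrl, against 74.3% to 78.8% in Fib-dZeb1. The rest in Fib-Ctrl was the 944-base isoform Ntn1-203, with 5.1 to 14.2 reads a library, so the Fib-Ctrl range rests on few reads.

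Ntn4 (ENSMUSG00000020019.4; chromosome 10, positions 93640681 to 93747207, plus strand) encodes netrin-4, a basement membrane netrin that binds laminins. It was at 7.82 and 6.17 CPM in Fib-Ctrl line 1, 22.3 and 9.03 CPM in Fib-Ctrl line 2, 7.92 and 3.60 CPM in Fib-dZeb1 line 1, and 1.55 and 0.66 CPM in Fib-dZeb1 line 2. Both libraries of Fib-dZeb1 line 2 were the lowest of the 8, and line 1 overlapped between genotypes. The log2 fold change over all libraries was -1.73 (SE 0.73, 95% interval -3.38 to -0.07). Under 19 alternative settings it lay between -3.36, without both libraries of Fib-dZeb1 line 1, and -0.98. Within line 1 it was -0.29 (95% interval -1.58 to 1.01) and within line 2 it was -3.84 (-5.33 to -2.36). Ntn1 made up 25.5% to 47.9% of the summed TPM of both netrins in Fib-Ctrl, against 96.5% to 99.7% in Fib-dZeb1. The summed netrin level was 8.55 ± 3.80 TPM in Fib-Ctrl, against 100 ± 32.1 TPM in Fib-dZeb1 (SD, n = 4 each).

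**Figure D2:**
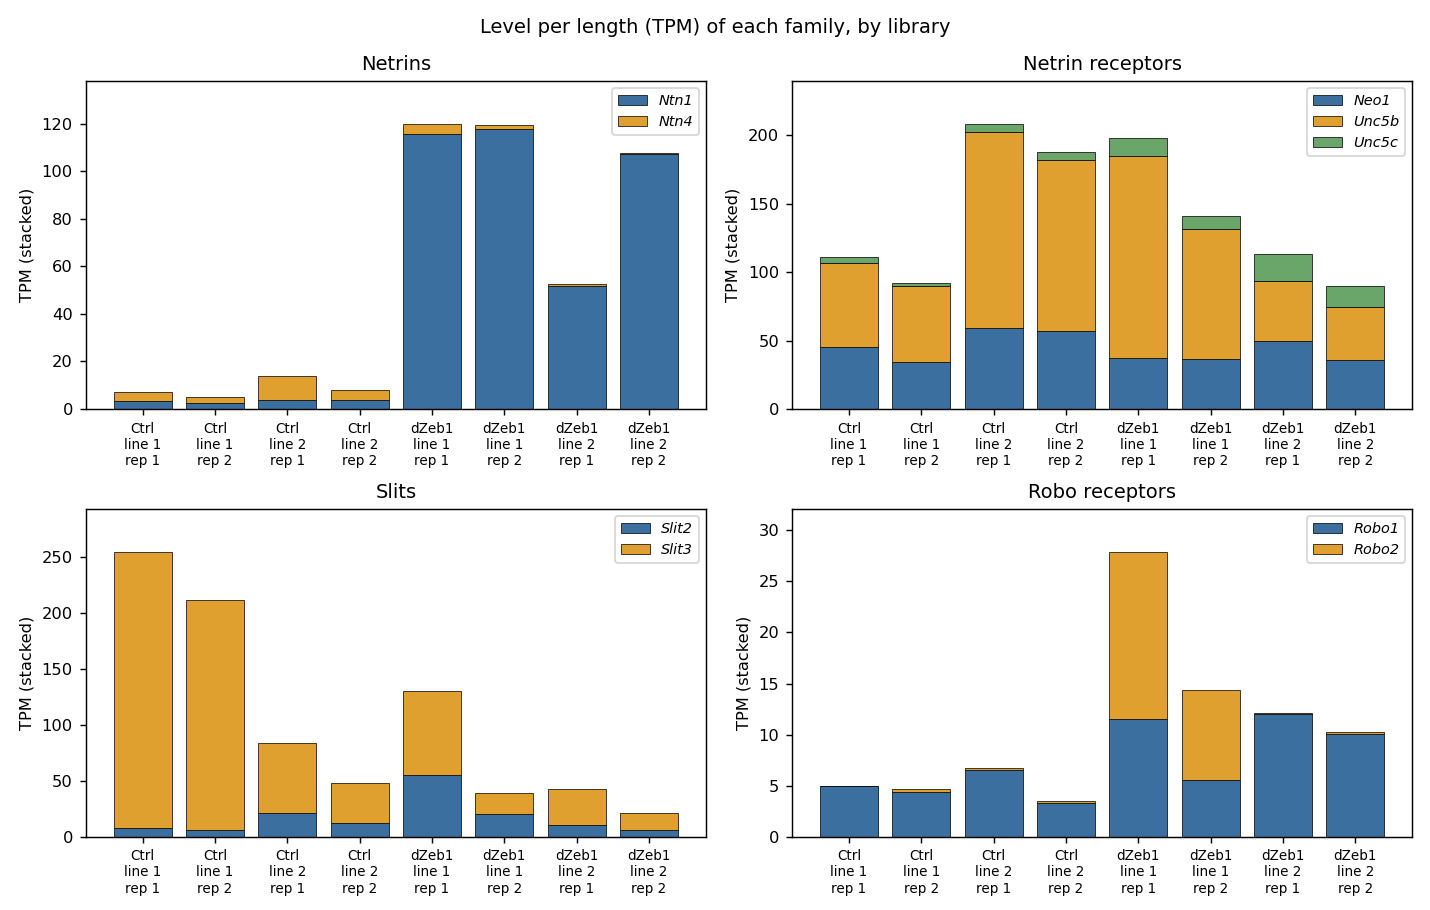
Stacked TPM (y axis, linear from 0) of the netrins, the netrin receptors, the Slits and the Robo receptors in each of the 8 libraries. Ntn1 fills most of the netrin bar in Fib-dZeb1, Slit3 most of the Slit bar in Fib-Ctrl line 1, and Robo2 appears in Fib-dZeb1 line 1.

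Dcc (ENSMUSG00000060534.16; chromosome 18, positions 71253634 to 72351069, minus strand), the receptor for which netrin-1 attraction is best known, had 0 reads in all 8 libraries. A count of 0 allows up to 3 reads, which is 0.118 to 0.16 CPM depending on the library and covers counting error only. Neo1 (ENSMUSG00000032340.8; chromosome 9, positions 58874687 to 59036441, minus strand) encodes neogenin, the close relative of DCC that also binds repulsive guidance molecules. Neo1 was at 197 and 156 CPM in Fib-Ctrl line 1, 266.5 and 262.8 CPM in Fib-Ctrl line 2, 147 and 152 CPM in Fib-dZeb1 line 1, and 194 and 145 CPM in Fib-dZeb1 line 2. The genotypes overlapped in Fib-Ctrl line 1 and Fib-dZeb1 line 2. Over all libraries the log2 fold change was -0.47 (SE 0.19, 95% interval -0.90 to -0.04), with -0.24 within line 1 and -0.64 within line 2.

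Unc5b (ENSMUSG00000020099.8; chromosome 10, positions 60762593 to 60831581, minus strand) encodes an UNC5 receptor known for restraining the growth of vessels, and it was the most abundant netrin receptor here by mean TPM in both genotypes. It was at 207.2 and 199 CPM in Fib-Ctrl line 1 and 507.8 and 451 CPM in Fib-Ctrl line 2. The replicates of Fib-dZeb1 line 1 held 456 and 311.5 CPM, and those of Fib-dZeb1 line 2 held 137 and 121 CPM. The replicates of each line lay nearer to each other than to the other line of their genotype, and the order of the lines was opposite in the 2 genotypes. The log2 fold change over all libraries was -0.41 (SE 0.49, 95% interval -1.52 to 0.70), with -0.84 to -0.16 when 1 library was left out. It was 0.33 without both libraries of Fib-Ctrl line 2 and -1.40 without both of Fib-dZeb1 line 1. Within line 1 it was 0.92 (0.49 to 1.34) and within line 2 it was -1.89 (-2.33 to -1.46).

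Unc5c (ENSMUSG00000059921.15; chromosome 3, positions 141465216 to 141834924, plus strand) encodes another repulsive UNC5 receptor. It was at 20.5 and 11.3 CPM in Fib-Ctrl line 1, 30.2 and 27.7 CPM in Fib-Ctrl line 2, 53.2 and 40.2 CPM in Fib-dZeb1 line 1, and 78.4 and 61.6 CPM in Fib-dZeb1 line 2. All Fib-dZeb1 libraries stood above all Fib-Ctrl libraries, and line 2 stood above line 1 in both genotypes. The means were 22.4 ± 8.5 and 58.4 ± 16.0 CPM (SD, n = 4 each), a 2.61-fold difference (log2 fold change 1.38, SE 0.32, 95% interval 0.66 to 2.10). It was 1.55 within line 1 and 1.27 within line 2. Unc5c no longer passed the threshold when Fib-Ctrl line 1 replicate 1 was left out (log2 fold change 1.34), or without the first (1.21), the second (1.36) or both (1.06) of the libraries of Fib-dZeb1 line 2, or with the reads of each line summed (1.36). Unc5c took 4.03% to 6.90% of the summed TPM of Unc5b and Unc5c in Fib-Ctrl, 8.30% and 9.28% in Fib-dZeb1 line 1, and 30.4% and 28.7% in Fib-dZeb1 line 2.

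Promoter sequences were looked up because ZEB1 is known to bind CACCTG. Windows of 300 bases, from 250 bases before to 50 bases after a start site, were at hand for 8 of the 10 genes (RefSeq, GRCm38.p6), with 3 windows for Robo2. CACCTG or its other strand CAGGTG occurred in 1 of these 10 windows, that of Robo1, and in 20.2% of all 32851 such windows. A match is a description and not a site. The windows are shown for Unc5c, as the promoter at hand of a gene that rose, for Robo1, as the window with the match (in capitals, beginning at position -164 from the start site), and for Robo2, as the promoter at the annotated end of the gene that was high in a single line. All other letters are in lower case, 5′ to 3′ on the strand of the gene.
Unc5c promoter, chr3:141465314-141465613, plus strand: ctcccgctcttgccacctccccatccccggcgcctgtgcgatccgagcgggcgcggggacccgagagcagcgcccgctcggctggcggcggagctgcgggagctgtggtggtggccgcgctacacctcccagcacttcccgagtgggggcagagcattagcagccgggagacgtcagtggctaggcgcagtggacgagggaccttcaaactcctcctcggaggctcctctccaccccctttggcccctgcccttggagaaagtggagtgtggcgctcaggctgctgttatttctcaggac
Robo1 promoter, chr16:72662899-72663198, plus strand: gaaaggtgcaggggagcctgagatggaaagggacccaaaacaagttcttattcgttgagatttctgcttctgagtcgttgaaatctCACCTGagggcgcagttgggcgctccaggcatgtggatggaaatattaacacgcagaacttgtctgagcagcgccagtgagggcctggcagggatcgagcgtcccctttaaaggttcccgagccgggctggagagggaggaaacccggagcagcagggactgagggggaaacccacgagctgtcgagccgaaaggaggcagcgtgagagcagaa
Robo2 promoter, chr16:74411776-74412075, minus strand: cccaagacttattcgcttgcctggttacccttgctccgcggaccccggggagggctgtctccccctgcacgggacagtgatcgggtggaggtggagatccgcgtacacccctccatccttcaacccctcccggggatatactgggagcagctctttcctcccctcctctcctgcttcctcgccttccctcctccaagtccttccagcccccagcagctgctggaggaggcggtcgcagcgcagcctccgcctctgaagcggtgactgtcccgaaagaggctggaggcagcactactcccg

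Slit3 (ENSMUSG00000056427.10; chromosome 11, positions 35121224 to 35708507, plus strand) encodes SLIT3, a Slit known from mesenchymal and muscle cells. It was at 745.6 and 651 CPM in Fib-Ctrl line 1 and at 195 and 114 CPM in Fib-Ctrl line 2. The replicates of Fib-dZeb1 line 1 held 204.9 and 56.8 CPM, and those of Fib-dZeb1 line 2 held 87.4 and 41.6 CPM. Fib-Ctrl line 1 stood apart from the other 6 libraries, among which the genotypes overlapped. Over all libraries the log2 fold change was -2.13 (SE 0.70, 95% interval -3.73 to -0.53), and without both libraries of Fib-Ctrl line 1 it was -0.67.

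Slit2 (ENSMUSG00000031558.15; chromosome 5, positions 47983138 to 48307733, plus strand) encodes SLIT2, the best studied Slit in axon repulsion. It was at 34.7 and 21.4 CPM in Fib-Ctrl line 1, 88.7 and 58.2 CPM in Fib-Ctrl line 2, 217 and 86.2 CPM in Fib-dZeb1 line 1, and 43.2 and 19.1 CPM in Fib-dZeb1 line 2. The genotypes overlapped, with the highest level in Fib-dZeb1 line 1 replicate 1. Over all libraries the log2 fold change was 0.85 (SE 0.71, 95% interval -0.77 to 2.46), with 2.43 within line 1 and -1.24 within line 2, and it was -0.03 without Fib-dZeb1 line 1 replicate 1 and -0.70 without both libraries of that line. Slit3 held 97.0% and 97.1% of the summed TPM of both Slits in Fib-Ctrl line 1 and 74.3% in each library of Fib-Ctrl line 2. In Fib-dZeb1 it held 57.4% and 49.7% in line 1 and 75.4% and 73.2% in line 2.

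Slit2 transcripts also differed in a short exon. The isoforms Slit2-202 and Slit2-216 are identical except for coding exon 16 of 38, which has 24 bases (8 codons; chr5:48220967-48220990, GRCm38, plus strand) and is missing from Slit2-216. The spliced sequence around it is shown with 21 bases on each side, the exon in capitals.
Slit2-202, with the exon: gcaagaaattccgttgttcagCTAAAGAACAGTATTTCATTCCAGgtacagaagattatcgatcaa
Slit2-216, without the exon: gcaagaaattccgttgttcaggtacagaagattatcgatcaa
Of the summed TPM of this pair, the isoform with the exon took 32.2% and 23.0% in Fib-Ctrl line 1 and 44.5% and 47.9% in Fib-Ctrl line 2. It took 100% and 77.3% in Fib-dZeb1 line 1 and 48.9% and 42.4% in Fib-dZeb1 line 2. Both libraries of Fib-dZeb1 line 1 lay above the other 6, and line 2 overlapped between genotypes. These shares are estimates by Salmon, over 333 to 2355 reads given to the pair in a library, most of which the isoforms share, and they were not tested.

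**Figure D3:**
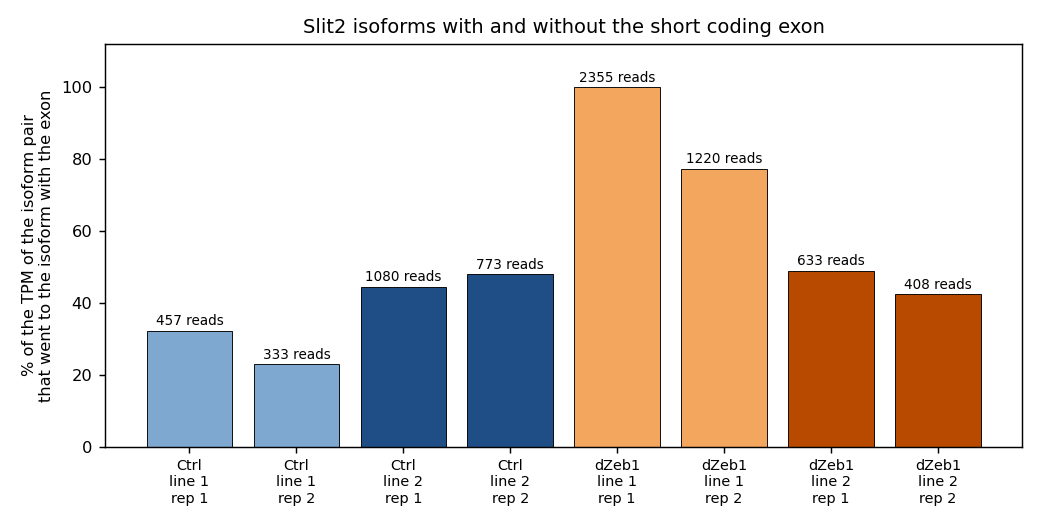
Percentage (y axis, linear from 0) of the summed TPM of the Slit2 isoform pair that went to the isoform with the 24-base exon, for each library, with the reads given to the pair above each bar. The bars of Fib-dZeb1 line 1 stand at 100% and 77.3%, and the other 6 at 23.0% to 48.9%.

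Robo1 (ENSMUSG00000022883.11; chromosome 16, positions 72308306 to 73046095, plus strand) encodes a widely expressed Slit receptor. It was at 21.9 and 20.7 CPM in Fib-Ctrl line 1, 30.4 and 15.6 CPM in Fib-Ctrl line 2, 46.4 and 23.5 CPM in Fib-dZeb1 line 1, and 48.5 and 41.5 CPM in Fib-dZeb1 line 2. The genotypes overlapped through Fib-Ctrl line 2 replicate 1 and Fib-dZeb1 line 1 replicate 2. The log2 fold change was 0.85 (SE 0.27, 95% interval 0.25 to 1.46), with 0.72 within line 1 and 0.97 within line 2. Robo1-201 was the only Robo1 isoform with an estimate, so all reads of the gene were given to it whatever their start site. Its start is the start site of the window shown above, whereas the gene is annotated from position 72308306. Which start site was used was not tested.

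Robo2 (ENSMUSG00000052516.19; chromosome 16, positions 73891839 to 74411825, minus strand) encodes the Robo receptor known from kidney and neuronal development. It had 5, 13, 9 and 11 reads in the Fib-Ctrl libraries, 773 and 452 reads in Fib-dZeb1 line 1, and 2 and 3 reads in Fib-dZeb1 line 2. In CPM this was 0.229, 0.668, 0.524 and 0.567, then 36.9 and 18.9, then 0.091 and 0.11. Robo2 was thus high in both libraries of a single culture. It passed the filter on low counts, which asks for at least 4 libraries, only because these were among them. Pooled over libraries, Fib-dZeb1 line 1 stood 55.9 times above Fib-Ctrl (exact Clopper-Pearson 95% interval 40.5 to 79.4, counting error only). The log2 fold change between genotypes was 4.81 with a wide interval (SE 1.66, 1.04 to 8.57), and without both libraries of Fib-dZeb1 line 1 it was -2.23. In Fib-dZeb1 line 1 the 3-exon isoforms Robo2-204 and Robo2-201 took 29.3% and 26.9% of Robo2 TPM in replicate 1 and 35.0% and 32.2% in replicate 2, with 15.5 and 12 reads for Robo2-204, so the TPM of the gene depends on how reads were split between short and long isoforms. On that scale Robo2 was 58.8% and 61.7% of the summed TPM of both Robo genes in Fib-dZeb1 line 1 and 0.303% to 5.02% in the other libraries.

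Earlier results of these data were known when the genes were chosen, so the share of them that passes below is a description. The difference of the genotype contrast between line numbers was tested in a fit with a mean for each line. It passed in 4 of 9 genes (Ntn4, Unc5b, Slit2, Robo2), beside 15.3% of all genes tested. In each of the 4 the contrast was lower between the line 2 cultures, with 7.55% of all genes passing in that direction. For Unc5b the contrast was lower by 2.81 on the log2 scale in line 2 (line 2 minus line 1, -2.81, SE 0.26, 95% interval -3.41 to -2.21, edgeR adjusted p = 0.00162), and its adjusted p stayed at or below 0.0107 under all 13 alternatives. Robo2 passed the filter on low counts only through Fib-dZeb1 line 1, where it is high, so nothing is read from its call. Its fitted difference, which rests on 5 reads in Fib-dZeb1 line 2, was -8.33 (SE 0.91, edgeR adjusted p = 0.00234, at most 0.0189 under the alternatives). For Slit2 it was -3.67 (SE 0.76, edgeR adjusted p = 0.0196), and it lost its call when replicate 2 of Fib-Ctrl line 1 (adjusted p = 0.0734), replicate 1 of Fib-Ctrl line 2 (0.0667) or replicate 2 of Fib-dZeb1 line 2 (0.0612) was left out. For Ntn4 it was -3.56 (SE 0.83, edgeR adjusted p = 0.0296), and it lost its call without either library of Fib-Ctrl line 1 (0.08 and 0.0942), the first of Fib-Ctrl line 2 (0.0893) or either of Fib-dZeb1 line 2 (0.055 and 0.1). For Ntn1 the difference was -0.80 with a 95% interval of -1.97 to 0.38 (edgeR adjusted p = 0.319), and for Unc5c it was -0.28 with an interval of -1.19 to 0.63 (edgeR adjusted p = 0.664). The line 1 cultures differed in sex, with Xist at 0 in Fib-Ctrl and at 250.6 and 113 CPM in Fib-dZeb1, and so came from different animals. Between them genotype, animal and sex cannot be told apart. The labels do not say whether the line 2 cultures share an animal, and these values compare pairs of cultures.

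Between the lines of Fib-Ctrl, Unc5b and Slit3 differed, 2 of 9 genes beside 17.0% of all genes tested. Unc5b was 2.36-fold higher in line 2 (log2 fold change 1.24, SE 0.18, edgeR adjusted p = 0.00582; at most 0.0452 under 13 alternatives). Slit3 was lower in line 2 (log2 fold change -2.18, SE 0.60, edgeR adjusted p = 0.0469), and with any Fib-Ctrl library or either Fib-dZeb1 line 2 library left out its adjusted p was 0.058 to 0.224. Neo1 was just outside the threshold (log2 fold change 0.58, SE 0.17, edgeR adjusted p = 0.0507). It passed without any of the Fib-dZeb1 libraries (0.0433 to 0.0467) and under DESeq2 (0.00855). Between the lines of Fib-dZeb1, Unc5b, Slit2 and Robo2 differed, 3 of 9 genes beside 6.87% of all genes tested, and all 3 were lower in line 2, beside 3.48% of all genes in that direction. Unc5b fell by 1.57 on the log2 scale (SE 0.18, edgeR adjusted p = 0.00678), and did not pass without Fib-dZeb1 line 2 replicate 2 (0.0651). Slit2 fell by 2.28 on the log2 scale (SE 0.54, edgeR adjusted p = 0.0487), and its adjusted p was 0.0718 to 0.23 without any of 7 libraries, passing without Fib-dZeb1 line 1 replicate 2 (0.018). Robo2 fell by 8.02 on the log2 scale (SE 0.61, edgeR adjusted p = 0.000965, at most 0.0171 under the alternatives). As it passed the filter only through Fib-dZeb1 line 1, nothing is read from this call or from its place in the count. The pooled reads, 1225 in line 1 against 5 in line 2, gave a ratio of 268.8 with an exact 95% interval of 114.9 to 829.2.

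Replicates of a line were compared next. In the test of replicate 2 against replicate 1, 0 of 9 genes passed with edgeR, beside 0.0231% of all genes tested, 6 of 9 had an unadjusted p under 0.05, beside 19.6% of all genes, and DESeq2 called 2 (Ntn4, Slit2), beside 5.58% of the genes it tested. The fitted difference was -0.98 for Ntn4, -0.96 for Slit2 and -0.96 for Slit3 on the log2 scale. These are lower values in replicate 2 and did not pass.

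The other genes of these pathways were described by 5 lists with 75 genes, of which 58 were tested. By genotype, 2 rose and 8 fell, which is 17.2% beside 16.2% of all genes tested, and the median log2 fold change was -0.10 beside -0.005 for all genes. None of these 10 genes passed with the reads of each line summed, which leaves 2 cultures per genotype (edgeR adjusted p 0.175 to 0.356), so the p-values below rest on counting replicate libraries of a culture separately. Among 9 relatives of the same families, 7 were under the filter. Ntng2, a netrin-G protein anchored to the membrane, fell, with means of 7.90 ± 1.42 and 2.07 ± 0.642 CPM (-1.93 on the log2 scale, SE 0.28, edgeR adjusted p = 0.00506). Ntn3 was at 4.47 ± 4.03 and 1.89 ± 0.987 CPM and did not pass (log2 fold change -1.25, SE 0.81, edgeR adjusted p = 0.32). Slit1 was at 0.464 to 0.815 CPM in Fib-Ctrl, against 0 to 0.183 CPM in Fib-dZeb1, and Robo3 at 0.137 to 0.257 and 0 to 0.238 CPM, both under the filter. The other 5 relatives had fewer than 10 reads over all libraries.

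Of 20 other ligands and co-receptors, 13 were tested, 1 rose and 2 fell. Rgmb, a repulsive guidance molecule that binds neogenin, rose, with means of 34.5 ± 6.87 and 55.8 ± 10.7 CPM (log2 fold change 0.69, SE 0.18, edgeR adjusted p = 0.0365). Without either library of Fib-Ctrl line 1, the first of Fib-Ctrl line 2, the second of Fib-dZeb1 line 1 or either of Fib-dZeb1 line 2 its adjusted p was 0.0675 to 0.0976. The syndecans, heparan sulfate proteoglycans of the cell surface that bind Slits, fell in 2 of 4 cases. Sdc1 averaged 253 ± 36.0 and 110.7 ± 27.2 CPM (log2 fold change -1.19, SE 0.19, edgeR adjusted p = 0.0067) and Sdc2 averaged 178 ± 25.8 and 115.5 ± 8.57 CPM (-0.62, SE 0.12, adjusted p = 0.0126). Of 19 partners on the netrin side, 16 were tested, 1 rose and 3 fell. Src, a kinase that phosphorylates DCC, rose (log2 fold change 0.52, SE 0.10, edgeR adjusted p = 0.0143), and its relative Fyn fell (-0.83, SE 0.15, adjusted p = 0.0106). The actin regulators Enah (-1.50, SE 0.22, edgeR adjusted p = 0.00515) and Evl (-0.58, SE 0.16, adjusted p = 0.0391) fell. Evl did not pass without any of 6 libraries (both of Fib-Ctrl line 2 and all 4 of Fib-dZeb1; adjusted p 0.0592 to 0.0944), nor with scaling by library size alone (0.0908). None of 20 partners on the Slit side passed. The most abundant of them by TPM were the small GTPases Rac1, at 486 ± 81.7 and 485 ± 46.8 CPM, and Rhoa, at 552 ± 72.1 and 467 ± 48.6 CPM. Among 7 proteases that shed or cut such receptors in the membrane, all tested, the gamma-secretase gene Psenen fell (log2 fold change -0.50, SE 0.09, edgeR adjusted p = 0.0108).

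**Figure D4:**
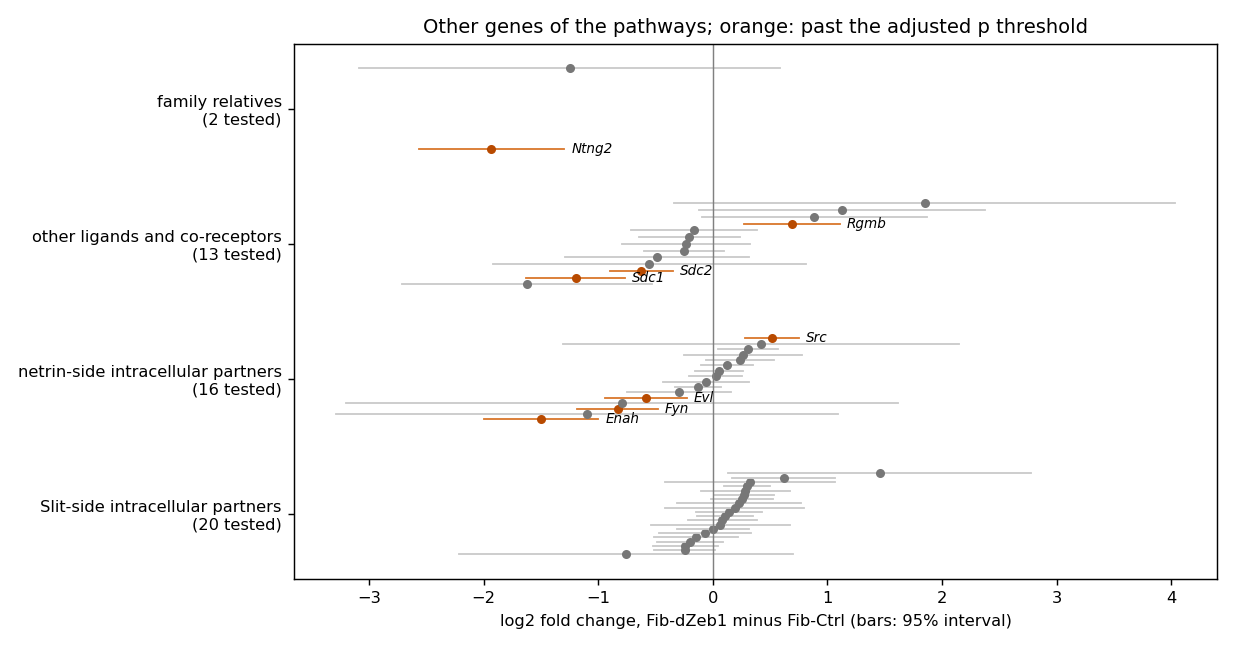
Log2 fold change of Fib-dZeb1 minus Fib-Ctrl (x axis) with its 95% interval for the 51 tested genes of 4 of the pathway lists (the proteases are not drawn), ordered by value within each list; orange marks the 8 genes past the adjusted p threshold. Ntng2, Enah and Sdc1 lie farthest left among the genes past the threshold, and the Slit-side partners lie around 0.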

How the data were processed

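Total RNA from 4 adherent cultures, with 2 replicate libraries each, was sequenced as poly-A libraries. The authors ran the nf-core RNA-seq pipeline with STAR and Salmon against GRCm38, and the deposited tables hold estimated counts and TPM for each transcript and library, as the authors' Salmon runs gave them. The versions of these tools and the strand setting go unstated in the sources used here, so reads of overlapping antisense genes cannot be told apart (at most 26 reads for any gene overlapping those described).

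Transcripts were summed to genes by GENCODE M21 (108214 of 109617 matched; the others held 0.262% to 0.303% of reads). Estimated counts were rounded to whole numbers, and genes reaching the minimum count of edgeR's filter in at least 4 libraries were kept (12963 of 45321). TMM scaling and the quasi-likelihood test of edgeR 4.0.16 (R 4.3.3) were used, with Benjamini-Hochberg adjustment over all genes tested and a threshold of 0.05. Genotype was the only term for the genotype contrast, and a mean for each line was fitted for contrasts of lines. The script was checked on simulated counts. Library totals of 18852422 to 25540529 reads set the precision, and intervals on pooled reads and limits for counts of 0 cover counting error only. Replicates had no identical libraries, and differed by more than counting noise (chi-square per degree of freedom 19.3 to 74.6). Since nothing says how replicates were separated, p-values measure only the spread between these libraries. Alternatives were DESeq2 1.42.0 and its size factors, library size alone, no filter, a replicate block, each library left out, reads of each line summed and log2(TPM + 0.1); leaving out both libraries of a line, and the alternatives for the replicate difference, were added after seeing the data.

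The genes and lists were chosen with earlier results of these data known. Named genes are the 10 members, relatives with at least 10 reads, up to 3 genes called in each direction per pathway list (otherwise the 2 most abundant by TPM), the 3 protein-coding genes most correlated with the most abundant gene of each role, and Zeb1. The other pathway genes with a called difference of the contrast, and the epithelial markers given singly, were named after their values were seen. A result for 1 gene of the protease list, counted in the totals, is not reported here.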

Additional observations from a re-analysis of the deposited data

Results flagged for a closer look

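Among the genes described above, the genotype contrast differed between the line numbers for 4 of 9 tested, beside 15.3% of all genes tested. All 4 were lower in line 2, beside 7.55% of all genes in that direction. Slit2 and Ntn4 lost their calls with some single libraries left out, as given above. The difference, line 2 minus line 1 on the log2 scale, was -3.56 for Ntn4 (edgeR adjusted p = 0.0296), -2.81 for Unc5b (0.00162), -3.67 for Slit2 (0.0196) and -8.33 for Robo2 (0.00234). It also passed for Rac1, a small GTPase on the Slit side, at -0.58 (edgeR adjusted p = 0.049). Rac1 did not pass without any of 7 libraries (all but Fib-dZeb1 line 1 replicate 1; adjusted p 0.0772 to 0.186), with DESeq2's size factors (0.0514) or with library size alone (0.0784). Since the line 1 cultures differed in sex and so came from different animals, each value compares pairs of cultures. In line 1, genotype, animal and sex cannot be told apart. Robo2 passed the filter on low counts only through Fib-dZeb1 line 1, so nothing is read from its call.

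In all, 10 of 58 tested genes of the other pathway lists had such a difference, beside 15.3% of all genes tested, and the 9 besides Rac1 were named after their values were seen. Flrt2, a membrane protein that binds UNC5 receptors, had a difference of -2.14 (edgeR adjusted p = 0.00528). It was at 39.0 and 42.3 CPM in Fib-Ctrl line 1, 220 and 252 CPM in Fib-Ctrl line 2, 97.7 and 64.7 CPM in Fib-dZeb1 line 1, and 119 and 95.2 CPM in Fib-dZeb1 line 2. Ablim1, an actin-binding protein, had a difference of 3.88 (edgeR adjusted p = 0.00234). Mcam, a cell adhesion molecule that binds netrin-1, had a difference of -1.87 (edgeR adjusted p = 0.014), and did not pass without Fib-Ctrl line 2 replicate 1 (0.0543), Fib-dZeb1 line 2 replicate 1 (0.0602) or Fib-dZeb1 line 2 replicate 2 (0.0503). Nell2, a ligand of Robo3, had a difference of -4.74 (edgeR adjusted p = 0.0354), and did not pass without any of 6 libraries (all but Fib-Ctrl line 1 replicate 1 and Fib-dZeb1 line 1 replicate 2; adjusted p 0.0537 to 0.111). Abl2, a kinase, had a difference of -1.05 (edgeR adjusted p = 0.00857). The differences were 1.77 for Rgma (edgeR adjusted p = 0.023), 1.05 for Nck2 (0.0256), -0.95 for Pak3 (0.0458) and -0.54 for Pitpna (0.0493). Rgma did not pass without any of 6 libraries (all of Fib-Ctrl and Fib-dZeb1 line 2; adjusted p 0.0624 to 0.0835), nor Nck2 without any of 4 (the first of Fib-Ctrl line 1, the second of Fib-Ctrl line 2 and both of Fib-dZeb1 line 2; 0.0638 to 0.0892). Pak3 did not pass without any of 6 libraries (all but the first of Fib-Ctrl line 2 and the first of Fib-dZeb1 line 1; adjusted p 0.0792 to 0.154), nor Pitpna without any of 7 (all but the first of Fib-dZeb1 line 1; 0.0774 to 0.194). Flrt2, Ablim1 and Abl2 passed with any single library left out.

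In 4 of 66 tests within a genotype, 1 library stood apart from the other 3 by Dixon's criterion, which chance passes in about 1 of 20. Neo1 at 194.2 CPM in Fib-dZeb1 line 2 replicate 1, and Rhoa at 540.2 CPM and Abl2 at 119.4 CPM in Fib-dZeb1 line 1 replicate 2, were the highest of their genotype, and Ablim1 at 39.27 CPM in Fib-dZeb1 line 1 replicate 2 was the lowest.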

How the results depend on the processing

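The number of genes called by genotype, 2099 in the fit reported, was 984 to 2152 with 1 library left out, 817 without both Fib-dZeb1 line 2 libraries, 16 with the reads of each line summed and 3214 with DESeq2. The number of pathway genes called, 10 in the fit reported, was 18 without both Fib-Ctrl line 1 libraries, 4 without both Fib-dZeb1 line 2 libraries, 0 with lines summed (edgeR) and 8 to 11 with 1 library left out. The line difference within Fib-Ctrl (2208 genes) gave 3572 genes with no filter and 658 to 3266 with 1 library left out. The line difference within Fib-dZeb1 (890) gave 2219 with no filter, 1639 with DESeq2 and 105 to 1220 with 1 library left out. The difference of the genotype contrast (1982) gave 3262 with no filter and 685 to 2850 with 1 library left out. The replicate difference (3) gave 302 with no filter, 667 with DESeq2 and 0 with any library left out. Fewer libraries or lines leave fewer degrees of freedom. The cause of the other changes was not tested.

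Deviations from the genotype mean were compared across genotypes between libraries of the same line and replicate number. They correlated at 0.23, -0.05, -0.05 and 0.08, with 3 of 8 libraries closest to their own number. These deviations also hold the differences between lines, so the check cannot show a shift shared by all replicates of a number. In the edgeR test of replicate 2 against replicate 1, 19.6% of all genes had an unadjusted p under 0.05. The genotype and line fits reported did not use the replicate number. With the replicate number as a block, 1966 genes were called by genotype, 3345 between Fib-Ctrl lines, 1744 between Fib-dZeb1 lines and 3114 for the difference of the contrast. Evl lost its call (adjusted p = 0.0556), and Neo1 between Fib-Ctrl lines passed (0.02).

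Signs turned only in differences that did not pass. With 1 library left out, the values ran from -0.099 to 0.567 for Ntn1, -0.464 to 0.512 for Robo1 and -0.302 to 1.231 for Robo2 between Fib-Ctrl lines, from -0.046 to 0.377 for Neo1, -1.669 to 0.179 for Slit3 and -0.045 to 0.932 for Robo1 between Fib-dZeb1 lines, and from -0.762 to 0.093 for Unc5c and -0.152 to 0.831 for Robo1 in the contrast difference. The genotype difference of Rac1 ran from -0.079 to 0.082, and was 0.178 with library size alone, 0.009 with no filter, 0.213 without Fib-Ctrl line 2, 0.084 without Fib-dZeb1 line 2 and 0.002 with lines summed. For Ntn3 it was 0.845 without Fib-Ctrl line 1.

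Of the values for single genes and the counts of described genes called, 897 were the same, 108 lost and 37 gained a call, 27 moved and 21 turned. The counts were judged by the size of their change. Genotype values of the described genes were judged by the spread, whatever their side of the threshold. Their changes of sign count as turned only for called genes, so those of Unc5b, Slit2 and Robo2 are not among the 21. Depth limits Dcc and Robo2 outside Fib-dZeb1 line 1, which had 0 and 2 to 13 reads a library.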

Other observations

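For the most abundant gene of each role by TPM, the genes with the most similar log2 CPM over the 8 libraries were listed as a description. The 8 points share genotype and line, and no p is given. Ntn1 had the highest Pearson r with Arhgef5 (0.995), Ltn1 (0.994) and Als2cl (0.99), and Slit3 with Col15a1 (0.993), Hspa2 (0.989) and Podn (0.986). Unc5b had the highest r with Cdc27 (0.994), Pum2 (0.99) and Lta4h (0.988), and Robo1 with Upf2 (0.98), Bmyc (0.978) and Mt1 (0.946).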
